A study of Mus musculus with 20 samples.

Results

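Bone marrow myeloid cells of mice bearing the melanoma YUMM3.3 were set against those of healthy mice in 3883 gene sets scored by the authors. Every set listed in the 2 deposited reports of this comparison was taken, with no selection by value, out of 27169 set entries over the 7 comparisons of the series. The sets held 15 to 483 measured genes. Of them, 1391 are canonical pathways, whose names start with a pathway collection such as REACTOME or KEGG, and 2492 are signatures from published experiments.

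The YUMM3.3-bearing group was 2 bone marrow libraries and the healthy group 3, out of 20 RNA-seq libraries in the series. All libraries of these groups were from adult C57BL/6 mice. Both groups were prepared with the same kit, which removes cells carrying CD3e, a subunit of the T cell receptor complex. YUMM3.3 is a mouse melanoma line derived from a genetically engineered tumour with an activated Braf allele and loss of Cdkn2a. The route and duration of tumour growth, the sex of the mice and whether each library came from its own animal are not given in the sources used here. Depletion of T cells leaves B cells, natural killer cells, erythroid cells and progenitors beside the granulocytes and monocytes that the label names. Levels of single genes were not analysed here, so the cell type could not be checked against its markers, and no value per library or spread between libraries can be given.

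Bone marrow makes granulocytes and monocytes from stem and progenitor cells through rounds of division that depend on ribosome production, respiration and cell cycle genes. Tumours are known to alter this output, a process called emergency or tumour-associated myelopoiesis, and immature myeloid cells from it can restrain T cells. Inflammatory input reaches marrow cells through Toll-like receptors, interferons and cytokines such as granulocyte and macrophage growth factors, while phosphoinositide and growth factor receptor pathways govern their movement and adhesion.

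A gene set is scored by walking down all genes ranked by their difference between groups, and the enrichment score is the largest excess of set genes met on the way. The normalised enrichment score (NES) divides it by the mean score of permuted data, which makes sets of different sizes comparable. It has no unit, and score below means NES. NES is given here as positive for sets higher in YUMM3.3-bearing marrow and negative for sets lower there. The genes of a set met up to the peak are its leading edge. The tags value is the share of the set's genes in that leading edge, and the list value is the share of all ranked genes passed at the peak. From the ranks and list values, the ranked list held 14549 genes. A set was called at a deposited false discovery rate q (FDR q) below 0.05. Directions rest on taking the group named first in a report as the side on which its sets are higher. The smallest nonzero nominal p in the tables was 0.00149, whereas relabelling 3 and 2 libraries cannot give less than 0.1, so the deposited p and q do not measure the spread between animals.

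Of the 6 microRNA target sets called lower, 3 are represented here by the sequences of their microRNAs, miR-21, miR-192 and the miR-30 family, since a microRNA finds its targets through its seed, bases 2 to 8 from the 5′ end, shown in capitals. They are the RefSeq mature mouse sequences (GRCm38.p6), printed 5′ to 3′.
mmu-miR-21a-5p: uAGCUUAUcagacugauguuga
mmu-miR-192-5p: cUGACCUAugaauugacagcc
mmu-miR-30a-5p: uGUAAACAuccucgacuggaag
mmu-miR-30c-5p: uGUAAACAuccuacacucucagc
mmu-miR-30e-5p: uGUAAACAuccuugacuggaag

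The first lies at chr11:86584120-86584141 on the minus strand and the second at chr19:6264857-6264877 on the plus strand. The miR-30a copy lies at chr1:23272274-23272295 (plus) and the miR-30e copy at chr4:120772660-120772681 (minus), and miR-30c is encoded at chr1:23291714-23291736 (plus) and chr4:120769584-120769606 (minus). All 3 miR-30 sequences shown here have the same seed, which differs from the seeds of the other 2 microRNAs. The levels of these microRNAs were not measured here.

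Across the whole list, 2060 sets (53.1%) had a positive NES and 1823 a negative one, and the median NES was 0.74. At FDR q below 0.05, 376 sets (9.68% of those listed) were higher in YUMM3.3-bearing marrow and 253 (6.52%) were lower. The higher sets reached further from 0, with a largest NES of 3.23 against -2.72 on the lower side. Sets for the cytosolic ribosome, ribosomal RNA, mitochondrial respiration, the proteasome and antigen presentation were called higher in a majority of each list. On the lower side stood sets for nuclear pores and SUMOylation, mitosis, phosphoinositides, microRNA targets and genes repressed after ultraviolet light. Lists of related sets were formed from patterns in their names, with names ending in DN left out because they hold genes that fell in the source experiment. In bulk RNA, a lower set can mean fewer cells of a type or less of its RNA per cell, and these cannot be told apart. Gene length and RNA quality were not analysed here, so their part in the scores on either side was not tested.

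**Figure D1:**
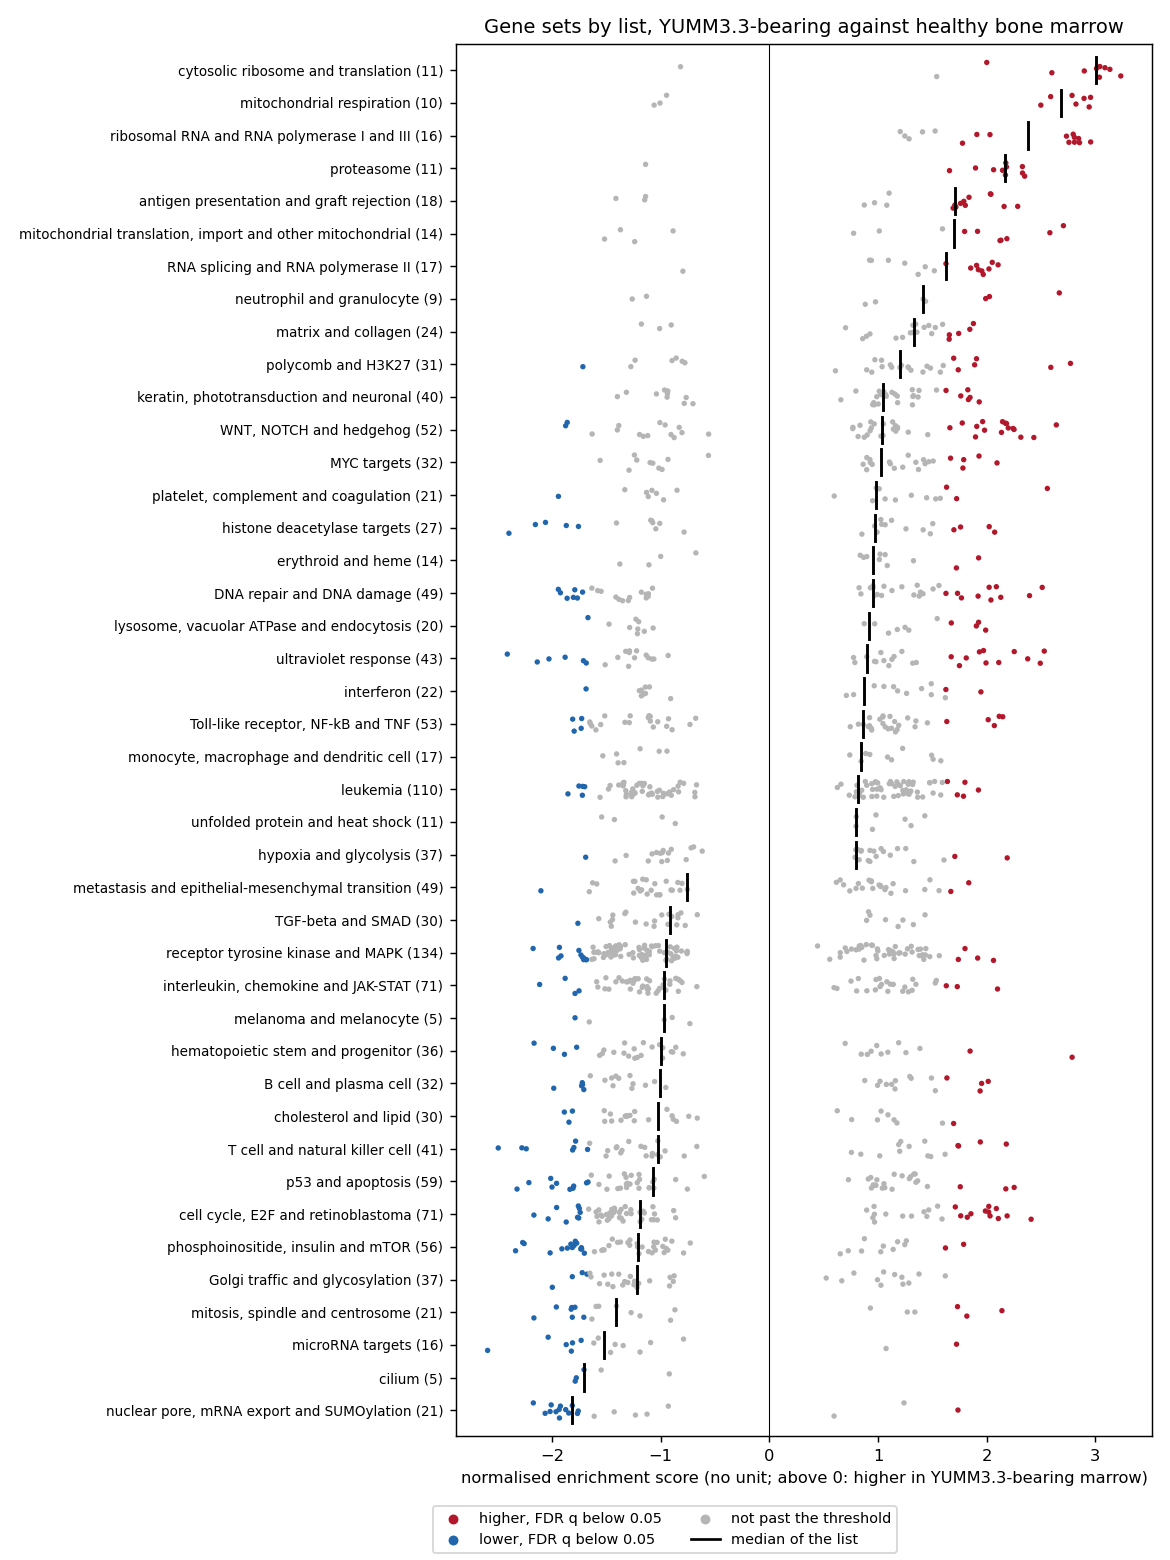
NES of each set (points) in 42 lists of related sets, with the number of sets in brackets and the median of each list as a black bar; red and blue points are sets past FDR q 0.05. The ribosome list has the highest median, 3.01, and the nuclear pore list the lowest, -1.81.

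The leading edges differed in depth between the directions. Called higher sets had a median list value of 11% (interquartile range 9% to 16%) and median tags of 39%, with a median of 25 leading edge genes. Called lower sets had a median list value of 20% (17% to 24%), median tags of 46% and a median of 26 leading edge genes. A list value of 20% or more was found in 51 of the 376 higher sets and 136 of the 253 lower sets. Above 30%, the order turned, with 18 higher sets at or beyond that depth and 3 lower sets. These depth values follow from the same ranking as the scores and are given as a description.

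**Figure D2:**
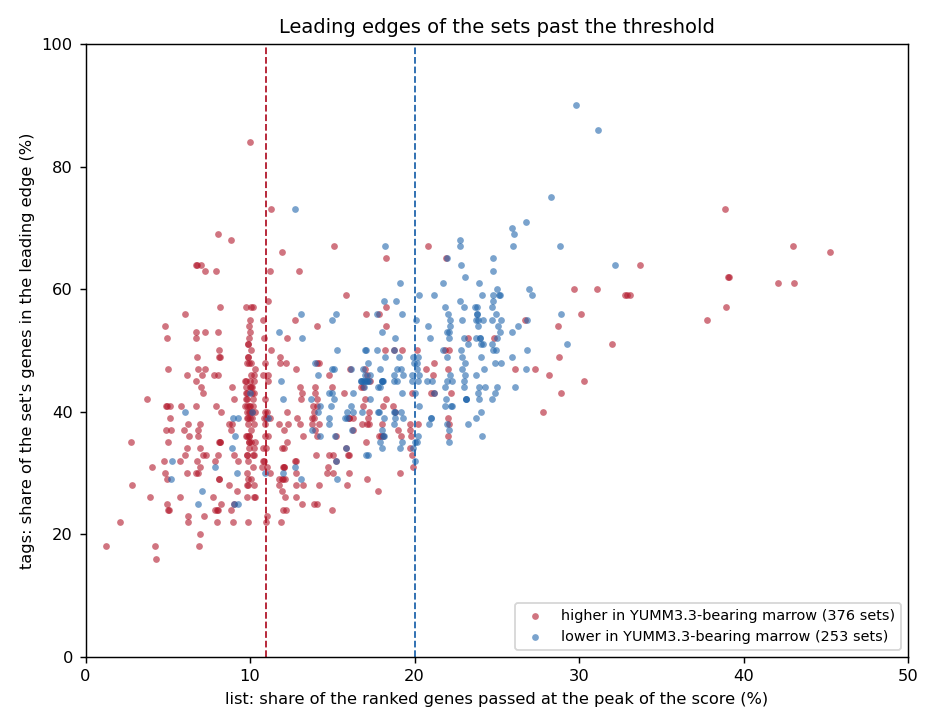
Tags (share of the set's genes in the leading edge) against list (share of ranked genes passed at the peak), both in percent, for the 376 higher and 253 lower sets; dashed lines mark the medians of the list value, 11% and 20%. The lower sets lie to the right of most higher sets, apart from a group of higher sets beyond 30%.

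Ribosomal protein and translation sets were higher in YUMM3.3-bearing marrow. Of the 11 sets in this list, 9 were higher (81.8%) and 0 lower, with a median NES of 3.01. REACTOME_SRP_DEPENDENT_COTRANSLATIONAL_PROTEIN_TARGETING_TO_MEMBRANE, which joins ribosomal proteins to the particle that delivers secretory proteins to the endoplasmic reticulum, had the highest NES of all, 3.23, and tags of 73% of 75 genes in the authors' deposited table. KEGG_RIBOSOME, the structural proteins of the ribosome, scored 3.13 in the authors' deposited table, with 84% of its 55 genes, about 46, inside the first 10% of the ranked list. This was the highest tags value of any called higher set. Initiation of translation followed, with REACTOME_EUKARYOTIC_TRANSLATION_INITIATION at an NES of 3.04 and tags of 66% of 83 genes in the authors' deposited table. The broader REACTOME_TRANSLATION, which also counts mitochondrial ribosomes and transfer RNA charging, had an NES of 3.04 and tags of 48% of 236 genes, about 113, in the authors' deposited table.

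Several high-scoring Reactome sets with other names hold ribosomal proteins by construction. Nonsense-mediated decay removes transcripts with early stop codons, and its form without the exon junction complex, REACTOME_NONSENSE_MEDIATED_DECAY_NMD_INDEPENDENT_OF_THE_EXON_JUNCTION_COMPLEX_EJC, had an NES of 3.09 and tags of 69% of 62 genes in the authors' deposited table. REACTOME_SELENOAMINO_ACID_METABOLISM scored 2.90 with tags of 57% of 83 genes in the authors' deposited table. KEGG_SELENOAMINO_ACID_METABOLISM, a set of selenium enzymes from another collection, had an NES of -0.82 there and was not called. The axon guidance set REACTOME_REGULATION_OF_EXPRESSION_OF_SLITS_AND_ROBOS scored 3.11 with tags of 57% of 129 genes in the authors' deposited table. Among signatures, PECE_MAMMARY_STEM_CELL_UP led with an NES of 3.05 and about 55 of 97 genes in the leading edge in the authors' deposited table. HSIAO_HOUSEKEEPING_GENES, genes expressed across normal human tissues, had an NES of 2.81 and about 124 of 317 genes in the authors' deposited table. Member genes were not analysed here, so neither the overlap of these sets nor the ribosomal proteins in the signatures were counted.

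Ribosomal RNA synthesis by RNA polymerase I and its processing scored on the same side. Of 16 sets for ribosomal RNA and RNA polymerases I and III, 11 were higher (68.8%) and 0 lower, with a median NES of 2.38. REACTOME_RNA_POLYMERASE_I_PROMOTER_ESCAPE had an NES of 2.96 with tags of 57% of 63 genes in the authors' deposited table. REACTOME_RRNA_PROCESSING_IN_THE_NUCLEUS_AND_CYTOSOL, the cutting and modification of the precursor, had an NES of 2.85 with tags of 43% of 145 genes in the authors' deposited table. REACTOME_SIRT1_NEGATIVELY_REGULATES_RRNA_EXPRESSION, named for a deacetylase that silences ribosomal genes, was also higher, with an NES of 2.85 and tags of 64% of 42 genes in the authors' deposited table. Sets named for activation and for silencing of ribosomal RNA genes therefore stood on the same side.

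Many Reactome sets that list core histones among their members ended their leading edge at the same gene. The rank of the gene at the peak was 1076 in 17 called higher sets and 1115 in 5. The 17 sets, with NES from 1.78 to 2.85, include pathways as unlike by name as base excision repair, telomere maintenance, DNA methylation, granulopoiesis and the beta-catenin complex. REACTOME_TRANSCRIPTIONAL_REGULATION_OF_GRANULOPOIESIS, the control of neutrophil formation, had an NES of 2.67 with tags of 47% of 59 genes in the authors' deposited table. REACTOME_PRC2_METHYLATES_HISTONES_AND_DNA, named for the polycomb complex that places H3K27 methylation, peaked earlier, at rank 784, with an NES of 2.77 and tags of 54% of 46 genes in the authors' deposited table. A peak at rank 777 was shared by 8 sets, among them histone acetylation, prophase chromosome condensation and activation of HOX genes. REACTOME_DNA_DAMAGE_TELOMERE_STRESS_INDUCED_SENESCENCE had the shallowest peak of those named here, rank 403, and scored 2.39 in the authors' deposited table. Which genes these are cannot be seen without member genes.

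Mitochondrial respiration was higher, whereas the tricarboxylic acid cycle was not called. Of 10 respiration sets, 7 were higher (70.0%) and 0 lower, with a median NES of 2.69. KEGG_OXIDATIVE_PHOSPHORYLATION, all complexes of the respiratory chain with the ATP synthase, had an NES of 2.95 and tags of 53% of 85 genes within 7% of the list in the authors' deposited table. REACTOME_COMPLEX_I_BIOGENESIS, the assembly of NADH dehydrogenase, had an NES of 2.82 with tags of 64% of 39 genes in the authors' deposited table. A peak at rank 1074 was shared by 6 sets, namely these, the electron transport sets and the KEGG sets for Huntington's and Parkinson's disease, with NES from 2.47 to 2.95. The 3 respiration sets that were not called are those of the tricarboxylic acid cycle, which feeds electrons to the chain. KEGG_CITRATE_CYCLE_TCA_CYCLE scored -1.06 in the authors' deposited table.

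Of 14 other mitochondrial sets, 7 were higher and 0 lower, with a median NES of 1.69. REACTOME_MITOCHONDRIAL_TRANSLATION, the ribosomes inside the organelle, had an NES of 2.70 with about 44 of 81 genes in the leading edge in the authors' deposited table. REACTOME_MITOCHONDRIAL_PROTEIN_IMPORT had an NES of 2.13 and tags of 48% of 48 genes in the authors' deposited table. The wide MOOTHA_HUMAN_MITODB_6_2002, an inventory of mitochondrial proteins, had an NES of 2.18 with tags of 36% of 369 genes in the authors' deposited table. The inventory thus had a smaller share of genes in its leading edge than the respiratory chain sets. Of 37 hypoxia and glycolysis sets, 2 were higher and 1 lower, with a median NES of 0.79. REACTOME_GLYCOLYSIS was the lower set, with an NES of -1.69 and tags of 33% of 63 genes in the authors' deposited table. Its peak fell at the same rank, 2467, as that of 7 called sets named for nuclear pores, viral proteins or SUMOylation.

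The proteasome, which degrades ubiquitin-tagged proteins, was higher as a group. Of 11 sets named for it, 10 were higher (90.9%) and 0 lower, with a median NES of 2.17. KEGG_PROTEASOME had an NES of 2.33 with tags of 55% of 42 genes in the authors' deposited table. REACTOME_VIF_MEDIATED_DEGRADATION_OF_APOBEC3G had an NES of 2.33 with tags of 54% of 48 genes in the authors' deposited table. Ubiquitin ligases and conjugating enzymes dominate the remaining set, REACTOME_ANTIGEN_PROCESSING:_UBIQUITINATION_PROTEASOME_DEGRADATION, which scored -1.14 in the authors' deposited table and was not called. Sets for unfolded proteins and heat shock, another branch of protein quality control, were called in 0 of 11 cases, with a median NES of 0.80. The farthest from 0 was REACTOME_REGULATION_OF_HSF1_MEDIATED_HEAT_SHOCK_RESPONSE, at an NES of -1.54 and an FDR q of 0.0925 in the authors' deposited table.

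The largest group of sets with 1 common peak included many named for the proteasome or for protein degradation. Rank 1519, which is 10.4% of the way down the ranked list, ended the leading edge of 52 of the 376 called higher sets, 50 of them canonical. Their NES ran from 1.63 to 3.11 and their tags from 26% to 57%. They span KEGG_PROTEASOME, destruction of cell cycle regulators by the anaphase-promoting complex, NF-kB activation, T and B cell receptor signalling, NOTCH4, hedgehog, RAS, RUNX1, hypoxia and polyamines. A signature with none of these in its name, JIANG_AGING_HYPOTHALAMUS_UP, was also among them, at 1.72 in the authors' deposited table. REACTOME_NEGATIVE_REGULATION_OF_NOTCH4_SIGNALING had an NES of 2.31 with tags of 51% of 51 genes in the authors' deposited table. REACTOME_CELLULAR_RESPONSE_TO_HYPOXIA, which includes the degradation of the oxygen-sensing factor HIF, had an NES of 2.19 with tags of 41% of 66 genes in the authors' deposited table. REACTOME_RUNX1_REGULATES_TRANSCRIPTION_OF_GENES_INVOLVED_IN_DIFFERENTIATION_OF_HSCS, named for blood stem cell differentiation, had an NES of 2.78 with tags of 53% of 100 genes in the authors' deposited table. A shared peak says that these leading edges ended at 1 gene, so the 52 sets are not separate measurements. In all, 115 higher sets peaked at a rank shared by 4 or more called sets of that side, and the 376 sets used 238 distinct ranks. On the lower side, 31 sets peaked at such ranks, and the 253 sets used 193.

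**Figure D3:**
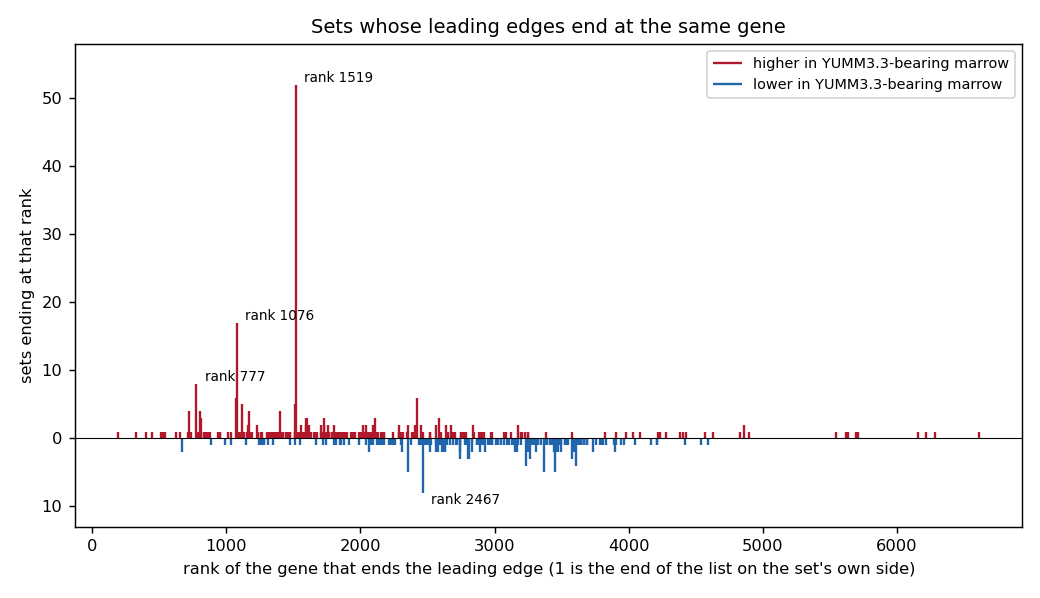
Number of called sets whose leading edge ended at each rank, with sets higher in YUMM3.3-bearing marrow drawn upward and lower sets downward; ranks count from each direction's own end of the 14549 ranked genes. The tallest line is rank 1519, with 52 sets, and the tallest on the lower side is rank 2467, with 8.

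Developmental signalling sets were higher more often than lower. Of 52 WNT, NOTCH and hedgehog sets, 16 were higher (30.8%) and 2 lower (3.85%), with a median NES of 1.04. Of the 16 higher sets, 6 peaked at rank 1519. The list was led by the Reactome set for the beta-catenin and TCF complex, which switches on WNT target genes, with a score of 2.64 and a peak at rank 1076 in the authors' deposited table. REACTOME_PRE_NOTCH_EXPRESSION_AND_PROCESSING, the making of the NOTCH receptor, scored 2.43 in the authors' deposited table and REACTOME_DEGRADATION_OF_DVL, the turnover of a WNT relay protein, 2.18. The 2 lower sets were both named for the WNT pathway or beta-catenin. PID_WNT_CANONICAL_PATHWAY had an NES of -1.86 with tags of 45% of 20 genes in the authors' deposited table. REACTOME_BETA_CATENIN_PHOSPHORYLATION_CASCADE, the kinases that mark beta-catenin for destruction, had an NES of -1.87 with tags of 47% of 15 genes in the authors' deposited table. Of 30 TGF-beta and SMAD sets, 0 were higher and 1 lower.

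The list of RNA splicing and RNA polymerase II sets and the mixed list of nuclear pore, mRNA export and SUMOylation sets had medians on opposite sides. Of 17 RNA splicing and RNA polymerase II sets, 9 were higher (52.9%) and 0 lower, with a median NES of 1.62. REACTOME_FORMATION_OF_THE_EARLY_ELONGATION_COMPLEX had an NES of 2.10 with tags of 38% of 24 genes in the authors' deposited table. KEGG_SPLICEOSOME had an NES of 1.97 with tags of 47% of 104 genes, over 21% of the list, in the authors' deposited table. Of 21 nuclear pore, mRNA export and SUMOylation sets, 13 were lower (61.9%) and 1 higher, with a median NES of -1.81. REACTOME_NUCLEAR_PORE_COMPLEX_NPC_DISASSEMBLY had an NES of -2.17 with tags of 56% of 32 genes in the authors' deposited table. REACTOME_NUCLEAR_IMPORT_OF_REV_PROTEIN, a set of nucleoporins and import factors, had an NES of -2.01 with tags of 45% of 31 genes in the authors' deposited table. The single higher set, REACTOME_SUMOYLATION_OF_CHROMATIN_ORGANIZATION_PROTEINS, had an NES of 1.73 from 22% of 65 genes in the first 2% of the list in the authors' deposited table.

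Cell cycle sets were called on both sides. Of 71 cell cycle, E2F and retinoblastoma sets, 12 were higher (16.9%) and 9 lower (12.7%), with a median NES of -1.19. Among the higher ones was replication licensing, with REACTOME_ASSEMBLY_OF_THE_PRE_REPLICATIVE_COMPLEX at an NES of 2.19 and a peak at rank 1519 in the authors' deposited table. VERNELL_RETINOBLASTOMA_PATHWAY_UP, named for the brake on entry into replication, scored -1.96 in the authors' deposited table. Of 21 mitosis, spindle and centrosome sets, 7 were lower (33.3%) and 3 higher (14.3%), with a median NES of -1.41. FISCHER_G2_M_CELL_CYCLE, genes expressed in late cycle, had an NES of -2.17 with about 111 of 201 genes in the leading edge in the authors' deposited table. REACTOME_MITOTIC_PROMETAPHASE, when chromosomes attach to the spindle, had an NES of -1.96 with tags of 49% of 169 genes in the authors' deposited table. It shared its peak, rank 3372, with the spindle checkpoint and sister chromatid cohesion sets. The 3 higher sets of the list are checkpoint and prophase sets. REACTOME_G2_M_CHECKPOINTS, with a score of 2.14 in the authors' deposited table, peaked at rank 1519, and REACTOME_MITOTIC_PROPHASE, with 1.82, at rank 777.

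Of 49 DNA repair sets, 10 were higher (20.4%) and 7 lower (14.3%), with a median NES of 0.95. Base excision repair, which removes single damaged bases, was higher, with REACTOME_BASE_EXCISION_REPAIR_AP_SITE_FORMATION at an NES of 2.51 and tags of 45% of 40 genes in the authors' deposited table. Sets for double-strand breaks stood on both sides. REACTOME_DNA_DOUBLE_STRAND_BREAK_RESPONSE was higher, with an NES of 2.04 and tags of 29% of 58 genes in the authors' deposited table. PID_ATM_PATHWAY, named for the kinase that senses breaks, was lower, at an NES of -1.94 and tags of 39% of 28 genes in the authors' deposited table. REACTOME_RESOLUTION_OF_D_LOOP_STRUCTURES_THROUGH_SYNTHESIS_DEPENDENT_STRAND_ANNEALING_SDSA, a step of homologous recombination, had an NES of -1.77 and tags of 86% of 22 genes in the authors' deposited table. FARMER_BREAST_CANCER_CLUSTER_2 had the highest tags of any called lower set, 90% or about 28 of 31 genes, with a score of -1.95 in the authors' deposited table.

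Sets named for apoptosis were lower more than higher in number, with 10 of 59 p53 and apoptosis sets lower (16.9%) and 3 higher (5.08%). REACTOME_NRAGE_SIGNALS_DEATH_THROUGH_JNK, named for a death signal of a neurotrophin receptor, had an NES of -2.32 with about 28 of 48 genes in the authors' deposited table. The proteases that carry out apoptosis were also lower, with SA_CASPASE_CASCADE at an NES of -2.01 and tags of 61% of 18 genes in the authors' deposited table. The 3 higher sets, among them REACTOME_STABILIZATION_OF_P53 with a score of 2.18 in the authors' deposited table, all peaked at rank 1519. Of 32 sets of targets of MYC, a growth-promoting transcription factor, 5 were higher (15.6%) and 0 lower. DANG_MYC_TARGETS_UP had an NES of 2.09 with tags of 34% of 106 genes in the authors' deposited table.

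Sets named for granulocytes were few and only partly called higher, and monocyte sets were not called. Of 9 neutrophil and granulocyte sets, 3 were higher (33.3%, against 9.68% of all sets) and 0 lower, with a median NES of 1.41. The highest of them, the granulopoiesis set given above, peaked at rank 1076, together with sets such as DNA methylation and telomere maintenance. REACTOME_ANTIMICROBIAL_PEPTIDES had an NES of 2.02 from 9 of 51 genes in the authors' deposited table. REACTOME_ROS_AND_RNS_PRODUCTION_IN_PHAGOCYTES, the oxidative burst, had an NES of 1.99 with tags of 37% of 35 genes in the authors' deposited table. It is also counted in the list of lysosome and endocytosis sets. Granule contents were not called, as REACTOME_NEUTROPHIL_DEGRANULATION scored 1.41 and LIAN_NEUTROPHIL_GRANULE_CONSTITUENTS 1.44 in the authors' deposited table. Monocyte, macrophage and dendritic cell sets were called in 0 of 17 cases at FDR q below 0.05, and the nearest, ZHONG_SECRETOME_OF_LUNG_CANCER_AND_MACROPHAGE, had an NES of 1.58 and an FDR q of 0.0664 in the authors' deposited table.

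Among 36 stem and progenitor sets, 2 were higher (5.56%) and 4 lower (11.1%, against 6.52% of all sets), with a median NES of -0.996. IVANOVA_HEMATOPOIESIS_MATURE_CELL, genes of mature mouse blood cells, had an NES of -2.17 with tags of 41% of 229 genes in the authors' deposited table. EPPERT_PROGENITOR, genes of human progenitors, had an NES of -1.99 with tags of 47% of 119 genes in the authors' deposited table. The mature cell set and the progenitor set named here were thus both on the lower side. The set of this list farthest from 0, the RUNX1 set for blood stem cell differentiation given above, was higher, at 2.78 in the authors' deposited table. HUANG_GATA2_TARGETS_UP, linked to a stem cell transcription factor, was higher, with a score of 1.85 in the authors' deposited table. Of 110 leukemia signatures, 5 were higher and 5 lower, shares of 4.55% that lie below the 9.68% and 6.52% of all sets. Sets of the erythropoietin receptor, which drives red cell formation, were lower, with PID_EPO_PATHWAY at an NES of -2.11 and tags of 58% of 31 genes in the authors' deposited table. Of 14 erythroid and heme sets, 2 were higher and 0 lower, both of them iron uptake sets. REACTOME_TRANSFERRIN_ENDOCYTOSIS_AND_RECYCLING scored 1.92 in the authors' deposited table and is also counted in the list of lysosome and endocytosis sets. The other, REACTOME_IRON_UPTAKE_AND_TRANSPORT, shared its peak, rank 2842, with REACTOME_INSULIN_RECEPTOR_RECYCLING of that list in the authors' deposited table.

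Inflammatory sets were called at about the shares of all sets, 9.68% higher and 6.52% lower. Of 22 interferon sets, 2 were higher (9.09%) and 1 lower (4.55%). RADAEVA_RESPONSE_TO_IFNA1_UP had an NES of 1.95 with tags of 54% of 39 genes in the authors' deposited table. REACTOME_ANTIVIRAL_MECHANISM_BY_IFN_STIMULATED_GENES, which also lists nuclear pore proteins, was lower, with an NES of -1.69 and tags of 53% of 74 genes in the authors' deposited table. Of 53 Toll-like receptor, NF-kB and TNF sets, 5 were higher (9.43%) and 4 lower (7.55%). The higher ones include REACTOME_DECTIN_1_MEDIATED_NONCANONICAL_NF_KB_SIGNALING, downstream of a fungal sugar receptor, with an NES of 2.15 and a peak at rank 1519 in the authors' deposited table. The lower ones are 3 receptor cascades and 1 expression signature. REACTOME_TOLL_LIKE_RECEPTOR_4_TLR4_CASCADE, the lipopolysaccharide pathway, had an NES of -1.73 with tags of 37% of 114 genes in the authors' deposited table. OKUMURA_INFLAMMATORY_RESPONSE_LPS, a mast cell response to lipopolysaccharide, had an NES of -1.73 with tags of 44% of 145 genes in the authors' deposited table. The TLR4, TLR9, TRIF and IL17 sets shared their peak, at rank 2355, with a set of nuclear MAP kinase targets.

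Cytokine and antigen presentation sets differed in this respect. Of 71 interleukin, chemokine and JAK-STAT sets, 3 were higher and 4 lower, shares of 4.23% and 5.63% that lie below those of all sets. REACTOME_CHEMOKINE_RECEPTORS_BIND_CHEMOKINES had an NES of 1.63 with tags of 27% of 37 genes in the authors' deposited table. AZARE_STAT3_TARGETS, genes induced by a transcription factor of cytokine signalling, had an NES of -1.75 with tags of 50% of 22 genes in the authors' deposited table. Of 18 antigen presentation and graft rejection sets, 11 were higher (61.1%) and 0 lower, with a median NES of 1.71. REACTOME_CROSS_PRESENTATION_OF_SOLUBLE_EXOGENOUS_ANTIGENS_ENDOSOMES, which is made up largely of proteasome subunits, had an NES of 2.28 with tags of 52% of 46 genes in the authors' deposited table. KEGG_ANTIGEN_PROCESSING_AND_PRESENTATION, which holds the histocompatibility molecules, had an NES of 1.72 with tags of 35% of 71 genes in the authors' deposited table. It shared its peak at rank 2424 with the KEGG sets for graft-versus-host disease and type I diabetes, a different rank from that of the proteasome sets. ICHIBA_GRAFT_VERSUS_HOST_DISEASE_35D_UP, genes induced in mouse liver by donor cells that attack the host, had an NES of 2.16 with tags of 36% of 120 genes in the authors' deposited table.

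Sets named for lymphocytes and platelets were also called, with the higher shares near the 9.68% of all sets. Of 32 B cell and plasma cell sets, 4 were higher (12.5%) and 5 lower (15.6%, against 6.52% of all sets). For T cells, which the kit removes, and natural killer cells, 4 of 41 sets were higher (9.76%) and 7 lower (17.1%). Platelet, complement and coagulation sets were higher in 3 of 21 (14.3%) and lower in 1 (4.76%). GREENBAUM_E2A_TARGETS_UP, from B cell precursors, had an NES of -1.98 with tags of 65% of 31 genes in the authors' deposited table. TARTE_PLASMA_CELL_VS_PLASMABLAST_UP, genes of antibody-secreting cells, had an NES of 1.95 with a list value of 28% in the authors' deposited table. ZHENG_FOXP3_TARGETS_IN_THYMUS_UP, induced by the regulatory T cell factor FOXP3, had an NES of -2.49 with about 92 of 158 genes in the authors' deposited table. REACTOME_DOWNSTREAM_TCR_SIGNALING lay on the other side at 2.18 in the authors' deposited table, with its peak at rank 1519. The part of other cell types in these scores was not tested. Melanoma and melanocyte sets, which would bear on tumour cells in the marrow, numbered 5, with 0 higher and 1 lower.

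Phosphoinositide sets were lower in YUMM3.3-bearing marrow more often than higher. Phosphoinositides are membrane lipids whose phosphorylation relays growth factor and chemokine signals. Of 56 phosphoinositide, insulin and mTOR sets, 15 were lower (26.8%) and 2 higher (3.57%), with a median NES of -1.21. REACTOME_SYNTHESIS_OF_PIPS_AT_THE_PLASMA_MEMBRANE had an NES of -2.34 with about 26 of 46 genes in the leading edge in the authors' deposited table, the lowest canonical score. REACTOME_PI_METABOLISM had an NES of -2.27 with tags of 52% of 73 genes in the authors' deposited table. BAKKER_FOXO3_TARGETS_UP, induced by a factor that insulin signalling holds in check, had an NES of -2.26 from a shallow leading edge of 39% of 46 genes within 9% of the list in the authors' deposited table. The plasma membrane, PI metabolism, erythropoietin and KEGG mTOR sets shared their peak, at rank 3234.

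Single sets for adhesion and cell movement were lower too. MILI_PSEUDOPODIA_HAPTOTAXIS_UP, RNAs found at the protruding front of migrating fibroblasts, had an NES of -2.37 with about 200 of 401 genes in the authors' deposited table. PID_FAK_PATHWAY, named for a kinase of adhesion sites, had an NES of -2.20 with tags of 49% of 53 genes in the authors' deposited table. Of 134 receptor tyrosine kinase and MAPK sets, 11 were lower (8.21%) and 4 higher (2.99%), the lower share being near the 6.52% of all sets. Their median of -0.95 became 0.06 with each source counted once. PID_MET_PATHWAY, the hepatocyte growth factor receptor, had an NES of -2.17 with tags of 49% of 72 genes in the authors' deposited table.

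Membrane traffic and lipid sets were called lower in small numbers. Over all listed sets, 6.52% were lower and 9.68% higher. Of 37 Golgi traffic and glycosylation sets, 4 were lower (10.8%) and 0 higher, 3 of 30 cholesterol and lipid sets were lower (10.0%) and 1 higher, and 3 of 5 cilium sets were lower. REACTOME_INTRA_GOLGI_TRAFFIC had an NES of -2.00 with tags of 67% of 39 genes in the authors' deposited table. REACTOME_REGULATION_OF_CHOLESTEROL_BIOSYNTHESIS_BY_SREBP_SREBF, the sterol synthesis programme, had an NES of -1.84 with tags of 47% of 51 genes in the authors' deposited table. Of 20 lysosome and endocytosis sets, 4 were higher and 1 lower, the lower set being Fc receptor-dependent phagocytosis with a score of -1.67 in the authors' deposited table.

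Most microRNA target sets lay on the lower side. Of 16 sets, 6 were lower (37.5%) and 1 higher, 14 had a negative NES, and the list had a median NES of -1.52. GABRIELY_MIR21_TARGETS, targets of the microRNA with the seed AGCUUAU, had an NES of -2.59 with about 105 of 244 genes within 15% of the list in the authors' deposited table. GEORGES_CELL_CYCLE_MIR192_TARGETS, cell cycle genes reduced by the microRNA with the seed UGACCUA, had an NES of -2.04 with tags of 56% of 55 genes in the authors' deposited table. IKEDA_MIR30_TARGETS_UP, targets for the miR-30 family with the seed GUAAACA, had an NES of -1.81 with tags of 51% of 97 genes in the authors' deposited table. The higher set, REACTOME_MICRORNA_MIRNA_BIOGENESIS, lists the enzymes that make microRNAs and RNA polymerase II, and had an NES of 1.72 with tags of 50% of 18 genes in the authors' deposited table. The other 3 lower sets were IKEDA_MIR1_TARGETS_UP at -1.87, GOTTWEIN_TARGETS_OF_KSHV_MIR_K12_11 at -1.82 and IKEDA_MIR133_TARGETS_UP at -1.73 in the authors' deposited table. The miR-30 and miR-133 sets were chosen for description after their values were seen.

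Many published signatures come as an UP set of genes that rose in the source experiment and a DN set of genes that fell. Both were listed for 701 signatures. In 352 of these pairs the members lay on opposite sides of 0 and in 349 on the same side. Both members were called in 19 pairs, with UP higher and DN lower in 10, the reverse in 3, both higher in 4 and both lower in 2. The pairs farthest apart came from ultraviolet light and from the polycomb enzyme EZH2. DAZARD_RESPONSE_TO_UV_NHEK, from irradiated human keratinocytes, had an NES of 2.38 for its UP set and -2.54 for its DN set in the authors' deposited table. LU_EZH2_TARGETS had 2.59 and -2.30 in the authors' deposited table. BYSTROEM_CORRELATED_WITH_IL5, genes that follow the eosinophil cytokine IL5 in bone marrow, had 2.10 and -2.46, the latter with 75% of 57 genes in the leading edge, in the authors' deposited table. PECE_MAMMARY_STEM_CELL had 3.05 for its UP set and -1.67 for its DN set in the authors' deposited table.

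The reverse order and shared sides also occurred. STARK_PREFRONTAL_CORTEX_22Q11_DELETION, from mice lacking a chromosomal segment, had -1.79 for UP and 2.33 for DN in the authors' deposited table. CHEN_HOXA5_TARGETS_9HR had -1.89 and 1.80 in the authors' deposited table. Both members of KANG_DOXORUBICIN_RESISTANCE were lower, with -1.76 for UP and -1.83 for DN in the authors' deposited table. Both members of PELLICCIOTTA_HDAC_IN_ANTIGEN_PRESENTATION, from cells given a deacetylase inhibitor, were higher, with 1.76 and 1.73 in the authors' deposited table. For such signatures the direction of the source experiment did not set the side.

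**Figure D4:**
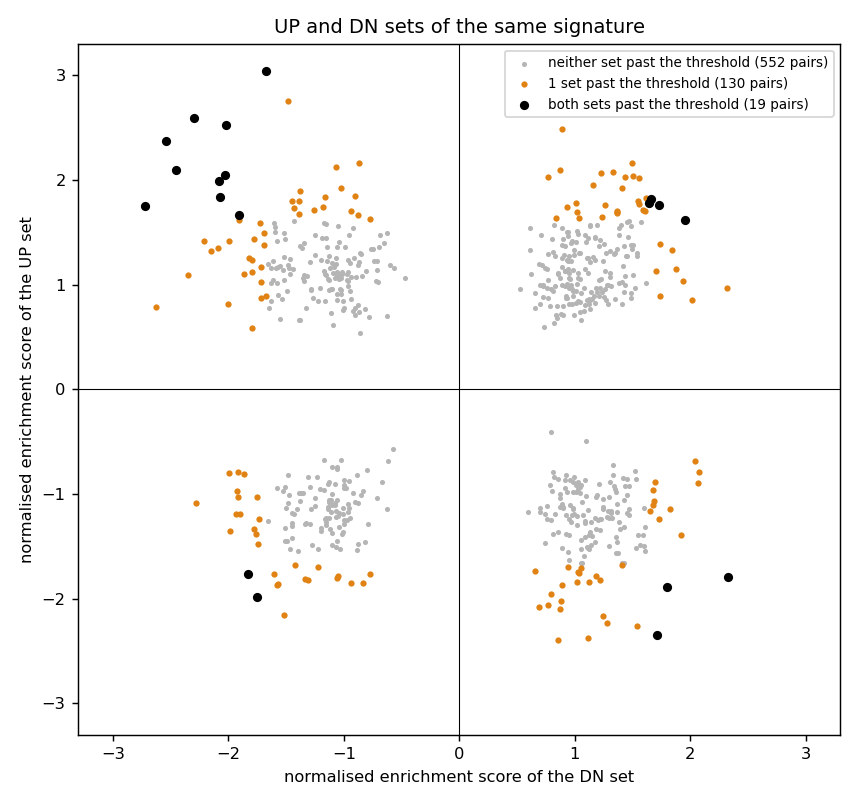
NES of the UP set against that of the DN set for 701 published signatures with both listed; black points are the 19 pairs with both past FDR q 0.05 and orange points the 130 with 1 past it. Black points gather at the upper left, where UP was higher and DN lower in 10 pairs.

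Of 43 ultraviolet response sets, DN names left out, 11 were higher (25.6%) and 6 lower (14.0%), with a median NES of 0.90. Ultraviolet light damages DNA and induces repair and stress genes. ENK_UV_RESPONSE_KERATINOCYTE_UP had an NES of 2.53 with tags of 38% of 456 genes in the authors' deposited table. The lowest NES of the comparison belonged to a DN set, DACOSTA_UV_RESPONSE_VIA_ERCC3_COMMON_DN, genes repressed after ultraviolet light in human fibroblasts, at -2.72 with about 231 of 391 genes in the authors' deposited table. Its UP set had 1.75 in the authors' deposited table. With DN sets kept, the median of the list was -0.997, on the other side of 0.

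Chromatin regulator signatures were divided. Of 27 histone deacetylase target sets, 4 were higher (14.8%) and 5 lower (18.5%). The lower sets include targets released by loss of single deacetylases, with SENESE_HDAC1_TARGETS_UP at an NES of -2.40 and SENESE_HDAC3_TARGETS_UP at -2.15 in the authors' deposited table. Responses to deacetylase inhibitors stood on both sides, with JOSEPH_RESPONSE_TO_SODIUM_BUTYRATE_UP at 2.07 and MOREIRA_RESPONSE_TO_TSA_UP at 2.02, but MARIADASON_RESPONSE_TO_BUTYRATE_SULINDAC_6 at -1.76, in the authors' deposited table. Of 31 polycomb and H3K27 sets, 6 were higher (19.4%) and 1 lower, with a median NES of 1.20. KAMMINGA_EZH2_TARGETS was the lower set, with an NES of -1.72 and tags of 59% of 39 genes in the authors' deposited table.

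A group of higher sets had unusually deep leading edges and named genes of other tissues. MEISSNER_BRAIN_HCP_WITH_H3K27ME3, genes whose promoters carry H3K27 methylation in brain, had an NES of 1.89 from 61% of 240 genes spread over 43% of the list in the authors' deposited table. NABA_CORE_MATRISOME, the structural proteins of extracellular matrix, had an NES of 1.84 from 62% of 235 genes over 39% of the list in the authors' deposited table. REACTOME_KERATINIZATION had an NES of 1.83 from 66% of 93 genes over 45% of the list in the authors' deposited table. By contrast, KEGG_RIBOSOME reached its peak at 10% of the list. Of 24 matrix and collagen sets, 5 were higher (20.8%) and 0 lower, and of 40 keratin, phototransduction and neuronal sets 6 were higher and 0 lower. A deep peak means that leading edge genes were spread far down the ranking, and the expression level of these genes was not analysed here.

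Values of the same sets in related comparisons are set beside those above. B16F10, another mouse melanoma line, gave 781 higher (20.1%) and 194 lower sets (5.0%) in 3 bone marrow libraries against the same 3 healthy libraries. Since the healthy libraries are shared, the comparisons are not independent, and only values side by side are given. In B16F10-bearing marrow, KEGG_RIBOSOME had an NES of 2.12, KEGG_OXIDATIVE_PHOSPHORYLATION 2.44 and KEGG_PROTEASOME 2.52 in the authors' deposited table. FISCHER_G2_M_CELL_CYCLE, at -2.17 with YUMM3.3, had 1.87 with B16F10 in the authors' deposited table. REACTOME_TOLL_LIKE_RECEPTOR_4_TLR4_CASCADE had -1.73 with YUMM3.3 and 1.96 with B16F10 in the authors' deposited table. IVANOVA_HEMATOPOIESIS_MATURE_CELL had -2.17 and 2.12 in the authors' deposited table. NABA_CORE_MATRISOME had 1.84 and -1.27, and GABRIELY_MIR21_TARGETS -2.59 and -2.21, in the authors' deposited table. The matrisome set was not called with B16F10, at an FDR q of 0.287. The late cell cycle, TLR4 and mature cell sets named here thus had opposite signs with the 2 tumours. Other sets of these kinds kept their sign. REACTOME_G2_M_CHECKPOINTS had 2.14 with YUMM3.3 and 2.46 with B16F10, and OKUMURA_INFLAMMATORY_RESPONSE_LPS -1.73 and -1.46, in the authors' deposited table. The OKUMURA set was not called with B16F10, at an FDR q of 0.148.

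The authors also compared the 2 tumours directly, with the same YUMM3.3 libraries. Toward YUMM3.3, KEGG_RIBOSOME scored 3.20 and KEGG_OXIDATIVE_PHOSPHORYLATION 2.76 in the authors' deposited table. FISCHER_G2_M_CELL_CYCLE had -2.41 and REACTOME_TOLL_LIKE_RECEPTOR_4_TLR4_CASCADE -1.96, both lower with YUMM3.3 in the authors' deposited table. KEGG_PROTEASOME had 2.00 at an FDR q of 0.00231 in the authors' deposited table.

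Spleen myeloid cells of YUMM3.3-bearing mice against healthy spleen shared no library with the marrow comparison and had 2 libraries a group. There, 607 sets were higher (15.6%) and 206 lower (5.31%). Across the 3883 sets, the Pearson correlation of NES between marrow and spleen was -0.17, a description over sets that share genes. Sets higher in both tissues numbered 97, which is 25.8% of the marrow list and 16.0% of the spleen list. Sets lower in marrow and higher in spleen numbered 101, which is 39.9% of the lower marrow list and 16.6% of the higher spleen list. Sets higher in marrow and lower in spleen numbered 24 (6.38% and 11.7%), and 1 set was lower in both.

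The KEGG proteasome set had the same sign in both tissues, whereas the KEGG ribosome and oxidative phosphorylation sets and the late cell cycle signature did not. Other sets of these lists differed from this, as REACTOME_G2_M_CHECKPOINTS had 2.43 in spleen, positive as in marrow, in the authors' deposited table. REACTOME_COMPLEX_I_BIOGENESIS had 0.65 in spleen but was not called there, at an FDR q of 0.989 in the authors' deposited table. KEGG_PROTEASOME scored 1.83 in spleen and KEGG_RIBOSOME -1.84 in the authors' deposited table. KEGG_OXIDATIVE_PHOSPHORYLATION had -0.58 in spleen at an FDR q of 0.992 in the authors' deposited table. FISCHER_G2_M_CELL_CYCLE had 3.24 in spleen against -2.17 in marrow in the authors' deposited table. REACTOME_NUCLEAR_PORE_COMPLEX_NPC_DISASSEMBLY had 2.21 against -2.17, and GABRIELY_MIR21_TARGETS 1.71 against -2.59, in the authors' deposited table. By lists, the median NES in spleen was 2.18 for nuclear pore sets, 2.36 for mitosis, 2.17 for the cell cycle, -1.16 for the ribosome and -1.21 for matrix. Whether the tissues differ was not tested, since no value per library was analysed.

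**Figure D5:**
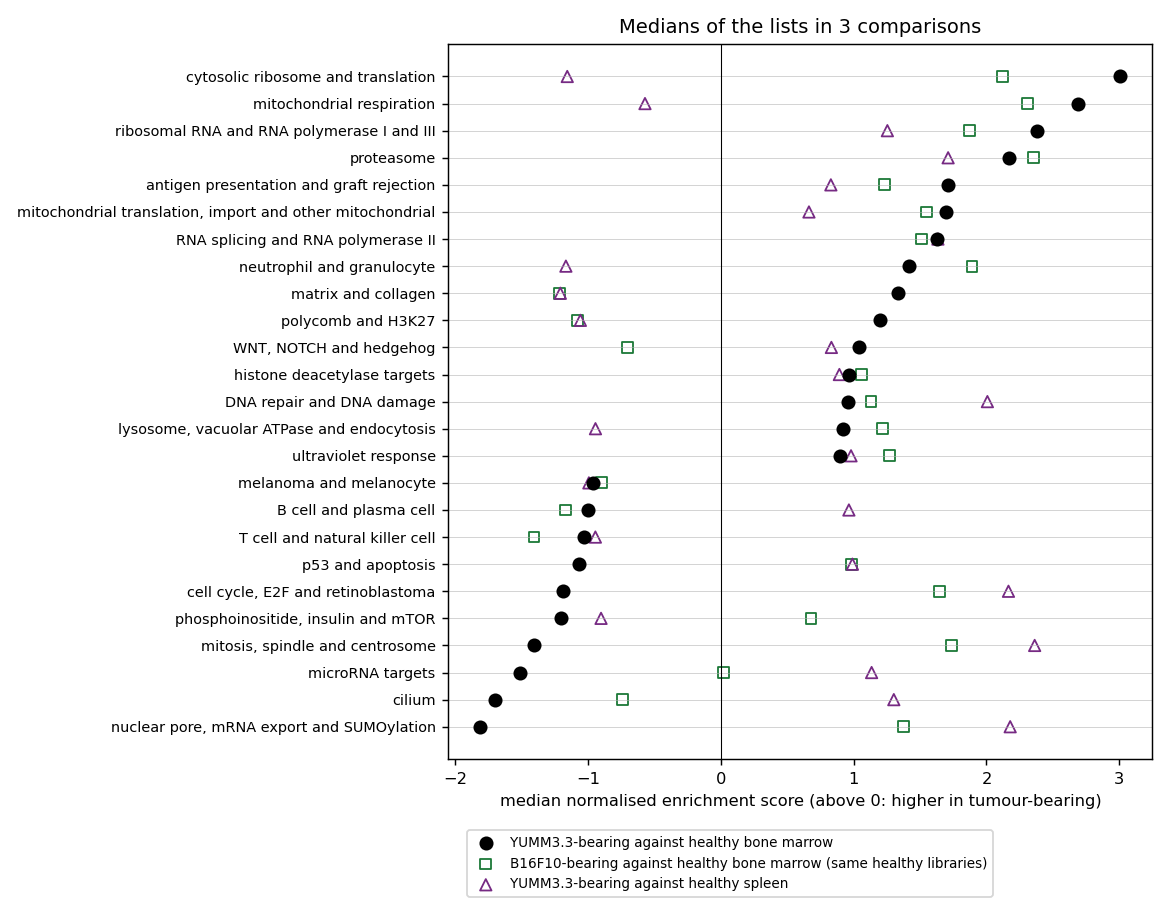
Median NES of the 25 lists in which at least 20% of the sets were called in YUMM3.3-bearing against healthy bone marrow (black), beside the same lists in B16F10-bearing against healthy bone marrow (green squares, same healthy libraries) and YUMM3.3-bearing against healthy spleen (purple triangles). Proteasome medians are above 0 in all 3 comparisons, while nuclear pore, mitosis and cell cycle medians are below 0 in the first only.

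At the threshold, the last higher set inside was ACEVEDO_LIVER_TUMOR_VS_NORMAL_ADJACENT_TISSUE_DN, with an NES of 1.62 and an FDR q of 0.0499 in the authors' deposited table. The first outside, REACTOME_DISEASES_ASSOCIATED_WITH_GLYCOSYLATION_PRECURSOR_BIOSYNTHESIS, had an NES of 1.62 and an FDR q of 0.0503 in the authors' deposited table. On the lower side, REACTOME_RORA_ACTIVATES_GENE_EXPRESSION lay inside at -1.67 (FDR q 0.0499) and HOEBEKE_LYMPHOID_STEM_CELL_UP outside at -1.66 (FDR q 0.0506) in the authors' deposited table. Sets this close to 0.05 differ too little in score for their call to separate them.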

How the data were processed

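Messenger RNA was sequenced from 2 YUMM3.3-bearing and 3 healthy bone marrow preparations, and sequencing depth is unknown here. The submitters' processing notes name the build mm10 and, without their roles, the tools DESeq2 1.22.2, STAR 2.7.1a, featureCounts 1.6.0 and FastQC 0.11.8. The files analysed were the authors' gene set enrichment reports, 1 for each direction. Per the file headers, the deposited scores are enrichment scores, raw and normalised, beside the peak rank and leading edge shares. Per the file headers, the deposited p-values comprise nominal p, FDR q and family-wise p. No source used here gives how the authors ranked genes or permuted data.

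The report that names healthy first carries positive scores and the report that names YUMM3.3 first negative ones, so signs were turned to make positive mean higher in YUMM3.3-bearing marrow. With Python 3.11.15 and pandas 2.3.3, calls were counted over all sets and over 42 lists of set names, and leading edge genes were taken as size times tags, rounded. The reader was tested on simulated data. No spread between libraries, leave-one-out value or fit could be computed from 1 value per set. Members and lists were chosen with earlier results of these data known. Sets were named by rule: the 12 canonical and 12 signature sets of largest NES size per direction, 4 per list and side, the 10 widest UP and DN pairs and 5 pairs on 1 side, 5 sets by highest and lowest tags, and those nearest the threshold. Sets named beyond the rule, such as the uncalled granule, citrate cycle and selenoamino acid sets, were chosen after their values were seen. Some sets that the rule names are not reported here. Alternatives were other q and family-wise thresholds, set sizes, collections, DN names and sources counted once.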

Additional observations from a re-analysis of the deposited data

How the results depend on the processing

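The number of higher sets, 376, became 774 at FDR q below 0.25, 235 at q below 0.01 and 126 at a family-wise p below 0.05. It was 199 among canonical sets, 177 among signatures and 117 with each source (first word of the name) counted once, each of which tests fewer sets. The number of lower sets, 253, became 781, 86, 35, 110, 143 and 107 under the same alternatives. At q below 0.25 the lower sets thus outnumbered the higher ones. Sets of 25 to 200 genes alone gave 304 and 177, within 1.5 times of the main counts. Of the 269 sets chosen for description, 168 were no longer called at the family-wise threshold.

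Medians of 42 lists were recomputed with DN names kept, with sets of 25 to 200 genes and with each source counted once, and 8 lists changed sign under at least 1 of these. The ultraviolet median of 0.90 became -0.997, -1.10 and -1.30 in that order. Counting each source once turned DNA repair from 0.95 to -1.30, over 7 sets, and receptor tyrosine kinase and MAPK from -0.95 to 0.06. Deacetylase targets went from 0.97 to -0.79 within the size limits, and metastasis sets from -0.75 to 0.71 with DN names kept. Unfolded protein, monocyte and lysosome medians also changed sign, and the other lists kept theirs. The NES nearest to 0 lay at a distance of 0.44 on the higher side and 0.41 on the lower side. A median can therefore cross 0 in a large step when few sets change, and the size of these changes is not a measure of effect. The cause of each change was not tested. No paired analysis was possible because the files give 1 value per set and comparison, and leaving out a library was not possible for the same reason. Depth per library was not analysed here.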
